A study of Mus musculus with 6 samples.

Results

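The nuclear-encoded subunits of the respiratory chain were followed in megakaryocyte-erythroid progenitors (MEPs) sorted from mouse bone marrow. Members were the protein-coding genes whose GENCODE M21 symbol begins with Nduf followed by a, b, c, s, v or ab and a digit, is Sdha, Sdhb, Sdhc or Sdhd, begins with Uqcr, begins with Cox and a digit from 4 to 8, or begins with Atp5. This rule used names only and took 86 of the 55487 gene identifiers in the count table, of which 38 belong to complex I, 4 to complex II, 8 to complex III, 18 to complex IV and 18 to complex V. RNA was sequenced from 3 libraries of control mice and 3 libraries of mice fasted for 6 h, all wild-type C57BL/6 mice of 8 weeks. The labels do not say whether a library held cells of 1 mouse or of several, so that p-values measure only the spread between libraries, which may be in part technical. The question put to the libraries, per the series' design, was how a short fast bears on red cell formation.

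The respiratory chain sits in the inner mitochondrial membrane. Complexes I and II pass electrons from NADH and succinate to ubiquinone, complex III passes them on to cytochrome c, complex IV reduces oxygen, and complex V, the ATP synthase, uses the proton gradient that complexes I, III and IV build. All of complex II and most subunits of the others are made from nuclear genes, while a few core subunits are made from the mitochondrial genome. Red cell precursors carry mitochondria, which they need for haem synthesis and lose late in maturation, and several complex IV subunits have isoforms used in muscle, lung or testis.

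The libraries held 12797144 to 30246110 counts, and the control libraries were the deeper. The members took 1.76%, 2.09% and 1.80% of the counts in the control libraries and 1.62%, 1.78% and 1.78% in the fasted libraries. A background of reads that follows exonic length was gauged from 1466 odorant and vomeronasal receptor genes, which are known from sensory neurons. Projected over all genes it came to between 3.90% and 8.59% of the counts in the control libraries and between 11.5% and 14.6% in the fasted libraries. It therefore moved with the groups. Of 12 erythroid markers 11 passed a limit of 5 times this background, with Gata1 at 158 to 390 CPM and Klf1 at 238 to 697 CPM over the 6 libraries, and Slc4a1 did not. Those 11 summed to 4276 to 7311 CPM in the control libraries and 5762 to 8711 CPM in the fasted libraries, and the groups overlapped. Of 8 megakaryocyte markers 5 passed, with Itga2b at 94.4 to 275 CPM, and Ppbp, Vwf and Gp1bb did not. The 8 summed to 583, 452 and 481 CPM in the control libraries and to 448, 436 and 297 CPM in the fasted libraries. Of the 5 tested, 3 were lower in the fasted libraries and 2 higher. Pf4 was lower in every fasted library than in any control library (-0.86 on the log2 scale), while Itgb3 was at 0.29 and Gp9 at 0.07. Vwf, which was not tested, was higher in every fasted library than in any control library. Markers of granulocytes and monocytes were unequal between libraries: the 10 genes of that list, none at 0, summed to 3817, 11645 and 17589 CPM in the control libraries and to 4438, 2698 and 1187 CPM in the fasted libraries. Summed markers of B and T lymphocytes (9 genes, 3 tested) were at 65.0 to 106 CPM in the control and 112 to 197 CPM in the fasted libraries. The 3 tested genes alone summed to 42.4, 70.6 and 64.1 CPM against 113, 73.3 and 47.9 CPM, and the groups overlapped. Summed markers of mast cells and basophils (5 genes, 4 tested) were at 115 to 219 CPM in the control and 57.0 to 119 CPM in the fasted libraries. Of 6 stroma and muscle markers 0 passed the background limit. The 6 summed to 41.2, 31.6 and 49.0 CPM in the control libraries and to 82.8, 68.5 and 115 CPM in the fasted libraries. These groups did not overlap, and the background itself was larger in the fasted libraries. Of 7 stem and multipotent progenitor markers 4 were tested, of which 3 were lower in the fasted libraries and 1 higher. Flt3 was higher in every fasted library than in any control library (0.76 on the log2 scale), and Meis1 was lower (-0.51). Cd34 was at -0.64 and Ly6a at -0.01, with overlapping groups. The part of these cell types in the values below was not tested.

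Values are given as CPM, each gene's counts relative to the counts that its library holds in tested genes, after TMM scaling. A gene was tested if it passed edgeR's filter on low counts and held at least 5 times the counts that the background predicts for its exonic length. Of the 86 members, 79 passed and 7 did not. Those were Ndufa4l2, Cox4i2, Cox7a1, Cox7b2, Cox8b, Cox8c and a second Atp5o identifier that overlaps the first and holds no count. Just inside the limit were Cox6a2 at 7.37 times and Ndufb2 at 7.93 times the background, and just outside it was Cox4i2 at 4.87 times. A log2 fold change is fasted minus control throughout, from edgeR's quasi-likelihood test with Benjamini-Hochberg adjustment over all 10641 genes tested.

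No member passed an adjusted p of 0.05, and neither did any of the 10641 genes tested (0%). The smallest adjusted p of a member was 0.146, of Ndufb7. An unadjusted p under 0.05 was reached by 10 members (12.7%), against 19.8% of all genes tested. Of these, 9 were lower in the fasted libraries (11.4%, against 8.3% of all genes tested) and 1 higher (1.27%, against 11.5%). In 12 of the 79 tested members all fasted libraries lay below all control libraries (15.2%, against 12.9% of all genes tested). In 0 of the 79 did all lie above (against 14.4%). Among the members not tested, Ndufa4l2, Cox7b2 and Cox8b had all fasted libraries above all control libraries, at counts near the background. Of the 8244 protein-coding genes tested, 10.4% were lower at that p, 16.0% had all fasted libraries below all control libraries, and 769 had all above. The lower members included Ndufa12, Ndufb7, Ndufb10, Ndufs8, Ndufa8, Ndufa13, Ndufs5 and Sdhb, and in Ndufv2, Uqcrc1 and Atp5f1 the groups did not overlap although the p was larger. The number of members lower at that unadjusted p ran from 4 to 13 when 1 library at a time was left out. It was 4 without control library 2, 4 without fasted library 1 and 4 without fasted library 3, and larger without others. Such fits also hold fewer libraries, so whether any single library set the number was not tested.

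The differences were small. Their log2 fold changes had a median of -0.11 with quartiles of -0.18 and -0.04, and 78 of the 79 lay between -0.5 and 0.5, as did 78.2% of all genes tested. The SE of a member's fold change had a median of 0.15, larger than most of the fold changes themselves. Small differences of 1 sign were common: 67 of 79 members were below 0 (84.8%), against 47.7% of all genes tested and 56.1% of the protein-coding genes tested. The median of the members was below 0 under each of the scalings tried, between -0.61 and -0.04, and depended on which genes set the scale. The members are also far more abundant than the usual tested gene, at a median of 164 times the background against 14.7 times. Within the abundant genes, those with 100 times the background or more, 55 members had a median of -0.11 with 87.3% below 0, and the 815 protein-coding genes had a median of -0.19 with 74.4% below 0. Of those members 14.5% were lower at an unadjusted p under 0.05, and of those protein-coding genes 25.4%. In bulk RNA, fewer cells of a type and less RNA per cell cannot be told apart.

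**Figure D1:**
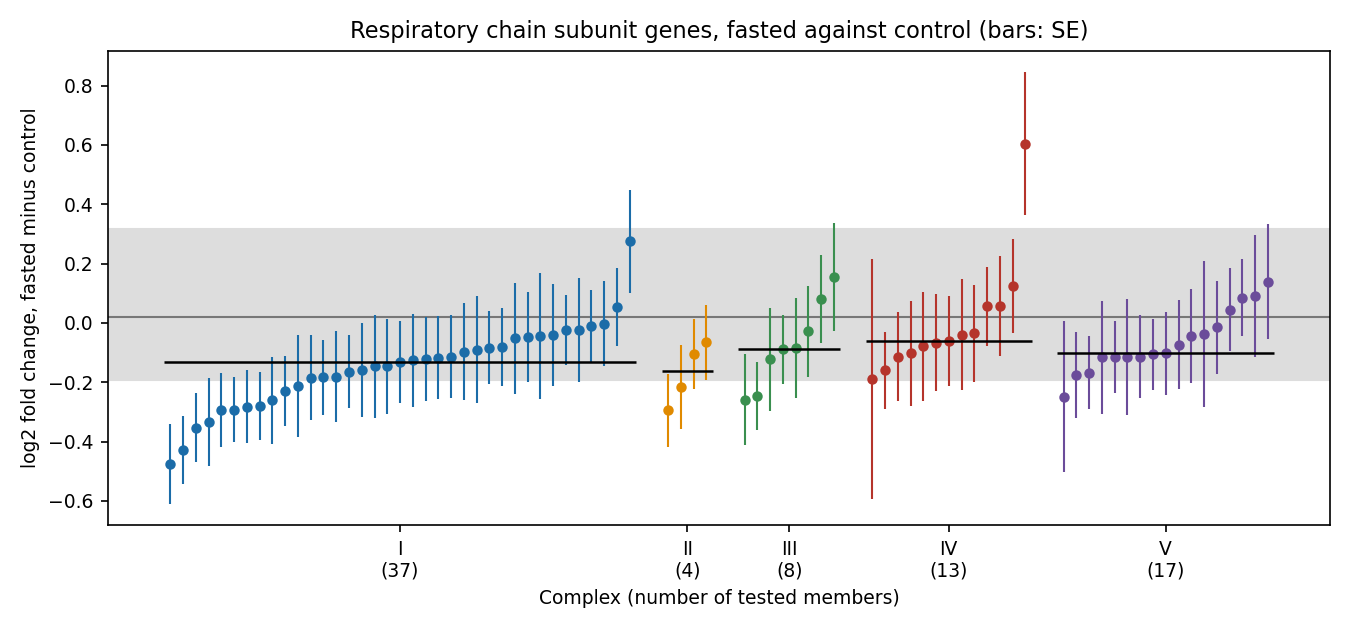
Log2 fold change (fasted minus control) of each of the 79 tested members, ordered within its complex, with bars of 1 SE; the black lines are the medians of the complexes, the grey line is the median of all genes tested (0.02) and the band spans their quartiles (-0.19 to 0.32). Complex I has 35 of 37 points below 0, and Cox6b2 in complex IV stands highest at 0.60.

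The libraries of 1 group differed among themselves by more than the groups did. The tested members summed to 18953, 23287 and 20386 CPM in the control libraries, a mean of 20876 ± 2208 (SD, n = 3), and to 18015, 20661 and 20002 CPM in the fasted libraries, a mean of 19559 ± 1377 (SD, n = 3). Control library 1 lay below fasted libraries 2 and 3, and control library 2 lay above every other library. On a log2 scale centred on the 6 libraries, the members averaged -0.14 in control library 1 and 0.22 in control library 2, the highest of all, and between -0.15 and 0.03 in the fasted libraries. Without control library 2 the median fold change was -0.03, and without control library 1 it was -0.21.

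**Figure D2:**
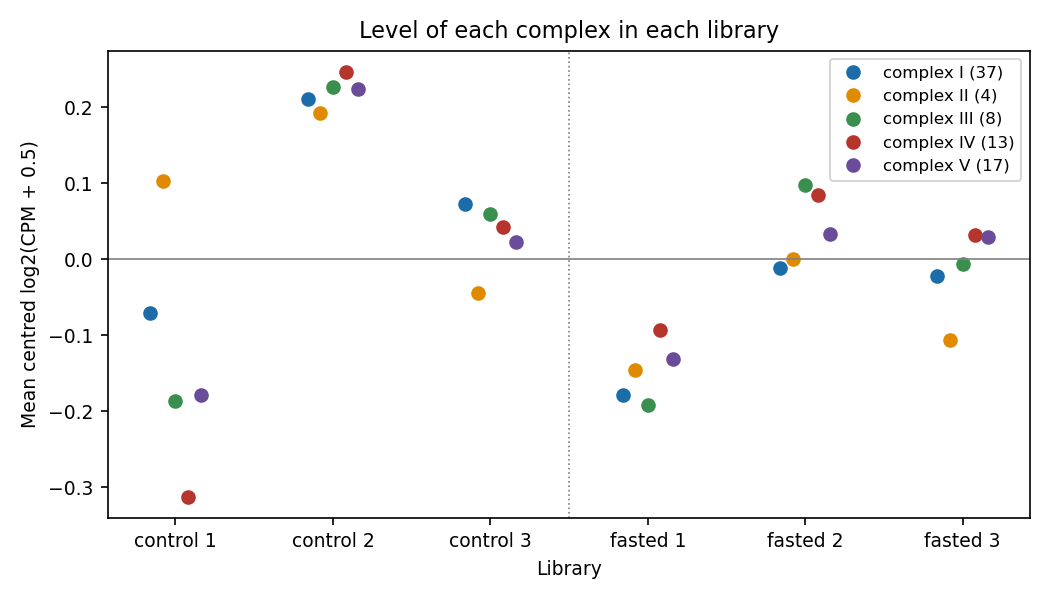
Mean of log2(CPM + 0.5), centred on the 6 libraries, over the tested members of each complex, by library; each point is 1 complex in 1 library. Control library 2 is highest for every complex, and control library 1 is at -0.31 for complex IV and 0.10 for complex II.

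The spread between control libraries followed transcript length, which matters for genes as short as these. The median merged exon length was 1523 bases for the members and 3175 bases for all genes above the background limit. The 35 members with principal transcripts of up to 700 bases lay at a median of -0.29 in control library 1 and 0.26 in control library 2 on the centred log2 scale. The 14 members over 1500 bases lay at 0.02 and 0.15. Over all 297 tested protein-coding genes of up to 700 bases, which include these members, the medians were -0.31 and 0.20. Across the 79 members, which share each library's preparation, the level in control library 1 had a correlation with log2 length of r = 0.58 (Spearman's rho = 0.63), and the level in control library 2 had r = -0.48 (rho = -0.55). Control library 3 had r = -0.31 (rho = -0.45), and fasted libraries 1, 2 and 3 had r = -0.006, -0.12 and -0.22. The log2 fold change had r = -0.15 (rho = -0.15). How far the length trends of single libraries enter the fold changes was not tested. With a length trend of protein-coding genes as an offset in each library, an alternative chosen after seeing the data, the members' median was -0.13 and 7 were lower at an unadjusted p under 0.05. With a trend of all tested genes on merged exon length instead, the members' median was -0.21, that of complex I was -0.27 and 23 members were lower at that p.

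**Figure D3:**
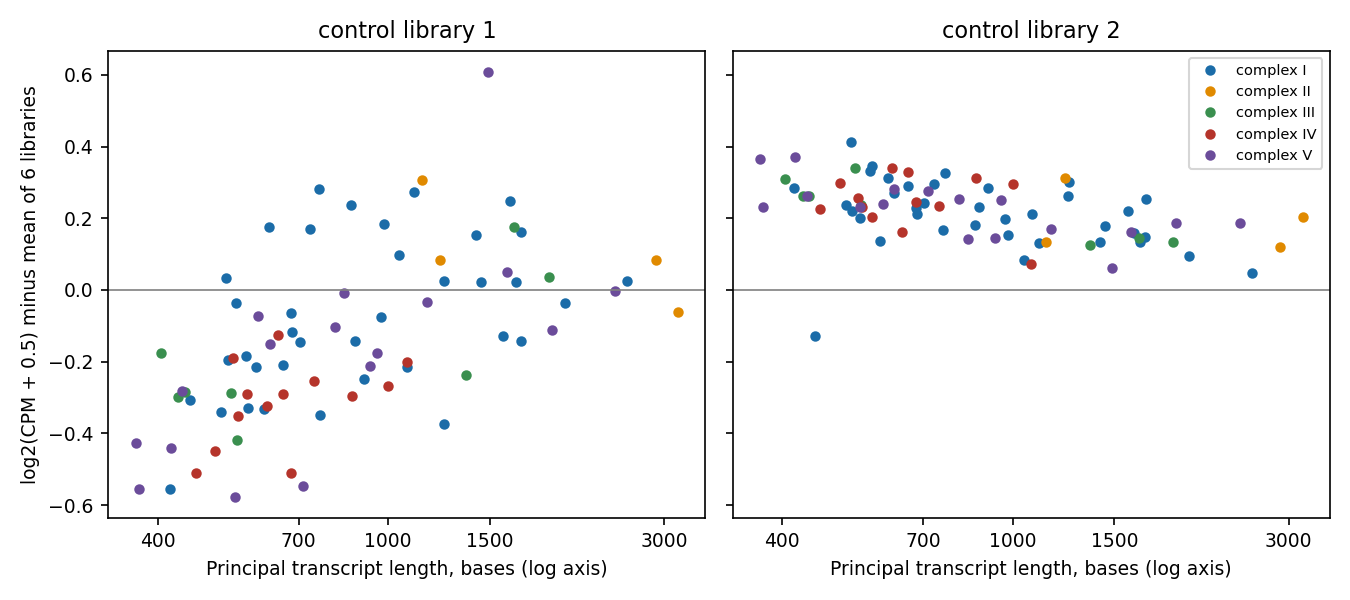
Level of each tested member in control library 1 (left) and control library 2 (right), as log2(CPM + 0.5) minus the mean of the 6 libraries, against the length of its principal transcript on a log axis; colours mark the complexes. Short transcripts are low in control library 1 (r = 0.58 over 79 members) and high in control library 2 (r = -0.48).

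Complex I, the NADH dehydrogenase and the largest of the complexes with 37 of the 79 tested members, held 8 of the 9 members that were lower at an unadjusted p under 0.05 and 9 of the 12 whose groups did not overlap. These were 21.6% and 24.3% of its tested genes, against 8.3% and 12.9% of all genes tested and 25.4% and 37.5% of the protein-coding genes at 100 times the background or more. Its genes had a median of -0.13, with 35 below 0, and summed to 6224 ± 501 CPM in the control libraries and 5547 ± 338 CPM in the fasted libraries (SD, n = 3 each). The 7 core subunits that carry flavin or iron-sulfur clusters or form the quinone site had a median of -0.15 with 6 below 0. The accessory subunits had medians of -0.14 for the 14 Ndufa and Ndufab genes, -0.14 for the 12 Ndufb and Ndufc genes and -0.11 for the 4 accessory Ndufs and Ndufv genes. Each of these groups of subunits thus had a median below 0. The accessory groups follow gene names and not the arms of the complex, and no group was tested.

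Ndufb7, an accessory subunit of the membrane arm (chromosome 8, 83566671 to 83571626, plus strand, GRCm38), was read at 201, 215 and 205 CPM in the control libraries and at 161, 160 and 140 CPM in the fasted libraries. The groups did not overlap, and fasted minus control came to -0.43 on the log2 scale (SE 0.12, edgeR adjusted p = 0.146). DESeq2 gave -0.45 with an adjusted p of 0.0433 and called 4.73% of all genes tested; over all alternatives the adjusted p ran from 0.0344 to 0.348. Ndufa12, an accessory subunit of the matrix arm (chromosome 10, 94198720 to 94221443, plus strand), was read at 239, 216 and 246 CPM in the control libraries and at 143, 190 and 172 CPM in the fasted libraries. Fasted library 1 was the lowest, and the groups did not overlap. The difference was -0.47 on the log2 scale (SE 0.14, edgeR adjusted p = 0.150), and over the alternatives the adjusted p ran from 0.0333 to 0.348, with a call in 3 fits that took in genes nearer the background. A pseudogene near-identical to Ndufa12 held counts equal to 25.2% of its own.

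Among the other complex I genes below that unadjusted p, Ndufb10, a membrane-arm subunit, was read at 250, 273 and 232 CPM against 189, 195 and 207 CPM, a log2 difference of -0.35 (SE 0.12, edgeR adjusted p = 0.170). Ndufs8, which binds iron-sulfur clusters, was read at 246, 241 and 232 CPM against 206, 187 and 194 CPM. In both genes every fasted library was below every control library, and the gap between the groups was larger than the spread within the control libraries for Ndufs8 only. The fold changes of Ndufs8, Ndufa8, Ndufa13 and Ndufs5 lay between -0.33 and -0.28, with edgeR adjusted p-values from 0.202 to 0.250.

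At the other end of complex I were Ndufb2 and Ndufs1. Ndufb2, a small membrane-arm subunit, was read at 26.9, 30.5 and 34.1 CPM in the control libraries and 32.6, 38.5 and 39.6 CPM in the fasted libraries, with overlapping groups and a log2 difference of 0.28 (SE 0.17, edgeR adjusted p = 0.397). Its merged exons overlap Braf on the opposite strand, and it lay closer to the background than any other tested complex I gene. Ndufs1, the largest core subunit, differed by 0.05 (SE 0.13), at 250, 253 and 222 CPM against 215, 263 and 274 CPM. Ndufa4 had the highest level per length among the genes named Nduf, at 574 ± 134 CPM per kb of transcript in the control libraries and 496 ± 22.9 in the fasted libraries (SD, n = 3 each). Its protein is now placed in complex IV. Ndufa4 was read at 256, 400 and 395 CPM against 288, 316 and 303 CPM, so that control library 1 lay below all fasted libraries.

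Complex II, succinate dehydrogenase, also serves the citric acid cycle. All of its 4 genes were below 0, with a median of -0.16, and only Sdhb passed an unadjusted p of 0.05. Sdhb, the iron-sulfur subunit (chromosome 4, 140961203 to 140979193, plus strand), was read at 521, 462 and 420 CPM in the control libraries and 391, 389 and 364 CPM in the fasted libraries. The groups did not overlap, Sdhb differed by -0.29 (SE 0.12, edgeR adjusted p = 0.235), and the values within the control group spanned more than the gap between the groups. Sdhd, a membrane anchor, differed by -0.22 (SE 0.14), at 427, 501 and 382 CPM against 335, 410 and 382 CPM. Sdha, the flavoprotein that oxidises succinate, differed by -0.11 (SE 0.12), and the other anchor, Sdhc, by -0.06 (SE 0.13). Complex II genes were not low in control library 1, where their centred mean was 0.10, and Sdha and Sdhc have the longest principal transcripts among the members.

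Complex III, the cytochrome bc1 complex, had a median of -0.09, with 6 of 8 genes below 0. Uqcrc1, a core protein of the matrix side, was read at 1052, 1031 and 964 CPM in the control libraries and 820, 897 and 850 CPM in the fasted libraries. The groups did not overlap, and Uqcrc1 differed by -0.25 on the log2 scale (SE 0.12, edgeR adjusted p = 0.271). Uqcrq, a small subunit, differed by a similar -0.26 (SE 0.15), at 191, 268 and 255 CPM against 176, 217 and 203 CPM, with overlapping groups. Uqcrfs1, the Rieske iron-sulfur protein, differed by 0.08 (SE 0.15) and Uqcrh, the hinge protein, by 0.15 (SE 0.18). Uqcr11 had the highest level per length of the complex at 803 ± 149 CPM per kb in the control libraries and 788 ± 62.8 in the fasted libraries (SD, n = 3 each). It differed by -0.03 (SE 0.15). Cyc1, the cytochrome c1 subunit, lies outside the naming rule and was read at 465, 509 and 394 CPM against 367, 432 and 456 CPM.

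Complex IV, cytochrome c oxidase, lay closest to 0 in the fit of all 6 libraries. Its 13 tested genes had a median of -0.06 with 9 below 0, and the sign of that median turned with upper-quartile scaling, where it was 0.0047. It also turned with single libraries, to 0.049 without control library 2 and to 0.030 without fasted library 1, and was -0.20 without control library 1. Without control library 2 the medians of complexes III and V were -0.0068 and -0.0013, so that the order of the complexes was not settled. The 11 genes of widely used isoforms summed to 3217 ± 596 CPM in the control libraries and 3170 ± 310 CPM in the fasted libraries (SD, n = 3 each). Cox5a, a matrix-side subunit, differed by -0.16 (SE 0.13) and Cox6a1, the isoform of Cox6a used outside muscle, by 0.13 (SE 0.16). Cox6a1 was read at 379, 534 and 429 CPM against 418, 518 and 528 CPM. Complex IV had the lowest centred mean of the 5 complexes in control library 1, at -0.31.

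The exception was Cox6b2, the isoform of Cox6b best known from testis. Cox6b2 (chromosome 7, 4751792 to 4753094, minus strand) was read at 47.9, 80.1 and 42.4 CPM in the control libraries and 74.6, 86.5 and 98.1 CPM in the fasted libraries. The groups overlapped through control library 2 and fasted library 1. Its log2 fold change of 0.60 (SE 0.24, unadjusted p = 0.0331, edgeR adjusted p = 0.222) was the highest of all members, and it was the only member above 0 at an unadjusted p under 0.05. Over the alternatives the value ran from 0.083 to 0.90, and without control library 3 it was 0.41. The widely used isoform Cox6b1 (chromosome 7, 30616861 to 30626151, minus strand) was read at 411, 651 and 544 CPM against 427, 553 and 540 CPM, a log2 fold change of -0.08 (SE 0.18). Cox6b1 had the highest level per length of the complex in the control libraries, at 866 ± 195 CPM per kb, and in the fasted libraries it was at 820 ± 112, beside 855 ± 107 for Cox6a1 (SD, n = 3 each). These levels did not differ beyond their spread.

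As a share within each library, which needs no scaling between libraries, Cox6b2 made up 13.4%, 14.1% and 9.39% of the Cox6b transcripts per length in the control libraries and 18.9%, 17.2% and 19.4% in the fasted libraries. All fasted libraries lay above all control libraries. The mean was 12.3% ± 2.5 against 18.5% ± 1.2 (SD, n = 3 each), a difference of 6.2 percentage points with an exact 2-sided permutation p of 0.1, which is the lowest that groups of 3 and 3 allow. Adjusted over the 7 isoform shares compared it was 0.35. With merged exon lengths in place of the principal transcripts the difference was 3.5 percentage points, and leaving out 1 library at a time it was 4.8 to 7.1. Cox6b2 held 51.5 to 135 times the background in every library, and the gene that ends 131 bases upstream on the same strand, Fam71e2, held only 16 to 71 counts in a library.

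The stretches before the transcription starts of both Cox6b genes are shown because the ratio of their RNAs did not overlap between the groups, with those of Cox6a1 and Uqcr11 as abundant members that carry a motif of a factor known to act on respiratory genes. They are from RefSeq on GRCm38.p6, 5′ to 3′ on the strand of the gene, and leave out any exon of a protein-coding gene. Capitals mark GCGCATGCGC, the palindromic NRF1 motif, and CCGGAAG or its reverse complement, the ETS motif that GABP binds.
Cox6b1 (chr7:30626152-30626364, minus): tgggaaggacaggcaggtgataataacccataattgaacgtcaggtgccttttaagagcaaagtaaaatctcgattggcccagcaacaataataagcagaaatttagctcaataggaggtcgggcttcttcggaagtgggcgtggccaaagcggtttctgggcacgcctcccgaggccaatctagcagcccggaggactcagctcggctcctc
Cox6b2 (chr7:4753095-4753225, minus): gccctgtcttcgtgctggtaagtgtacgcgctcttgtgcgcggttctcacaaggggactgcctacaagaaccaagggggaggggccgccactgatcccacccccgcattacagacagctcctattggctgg
Cox6a1 (chr5:115348982-115349208, minus): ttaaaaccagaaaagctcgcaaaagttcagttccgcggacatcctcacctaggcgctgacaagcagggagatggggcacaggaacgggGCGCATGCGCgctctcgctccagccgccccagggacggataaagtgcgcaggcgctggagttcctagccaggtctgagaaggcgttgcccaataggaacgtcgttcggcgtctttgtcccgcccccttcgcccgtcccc
Uqcr11 (chr10:80406831-80407071, minus): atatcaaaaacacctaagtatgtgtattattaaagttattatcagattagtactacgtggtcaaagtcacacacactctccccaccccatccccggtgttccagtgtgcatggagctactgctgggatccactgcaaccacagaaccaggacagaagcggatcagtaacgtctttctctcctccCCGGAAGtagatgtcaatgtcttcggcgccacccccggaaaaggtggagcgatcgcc
The RefSeq promoter table held 67 members, of which 64 were tested. In the 250 bases before their starts, on both strands, the NRF1 letters were found in 4 of the 64 tested members (6.25%), against 2.24% of 6607 tested protein-coding genes and 0.877% of all 27025 genes in the table. The ETS letters were found in 12 (18.8%), against 18.6% of the tested protein-coding genes and 7.83% of all genes. The letters AAGATGGCG, a YY1 motif, were found in 1 member (1.56%), against 1.66% and 0.710%. Cox6b1 and Cox6a1 each have an ETS match within the annotated first exon, past the stretch shown. These matches are descriptions of the letters and were not tied to the fold changes.

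The other tissue isoforms were at or near the background. Cox6a2, the heart and muscle isoform of Cox6a, was tested at 7.37 times the background and was read at 2.35, 4.32 and 5.26 CPM in the control libraries and 4.87, 3.25 and 2.34 CPM in the fasted libraries. It made up 0.737% ± 0.255 of the Cox6a transcripts per length against 0.621% ± 0.311 (SD, n = 3 each, exact permutation p = 0.6, adjusted p = 0.84). Cox4i2, the isoform of Cox4 known from lung and low oxygen, held 3.09 to 10.2 times the background in the control libraries and 2.14 to 3.77 times in the fasted libraries. Its share of Cox4 was 0.518% ± 0.319 against 0.475% ± 0.176 (SD, n = 3 each, exact permutation p = 1). Ndufa4l2, known as a target of HIF-1, held 27, 9 and 14 counts against 22, 25 and 44 counts, or 0.626 to 2.74 times the background in all libraries. Its share beside Ndufa4 was 0.141% ± 0.094 against 0.490% ± 0.197 (SD, n = 3 each, exact permutation p = 0.1, adjusted p = 0.35). In this share, as in that of Cox6b2, all fasted libraries lay above all control libraries, but at counts near the background. With the same scaling but all 36508 genes of the low-count filter tested, Ndufa4l2 was called higher, at 1.72 (SE 0.56, edgeR adjusted p = 0.0499), beside 13.7% of all genes called higher in that fit. Cox7a1 (muscle), Cox7b2 and Cox8c (testis) and Cox8b (muscle) held at most 35 counts in any library.

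**Figure D4:**
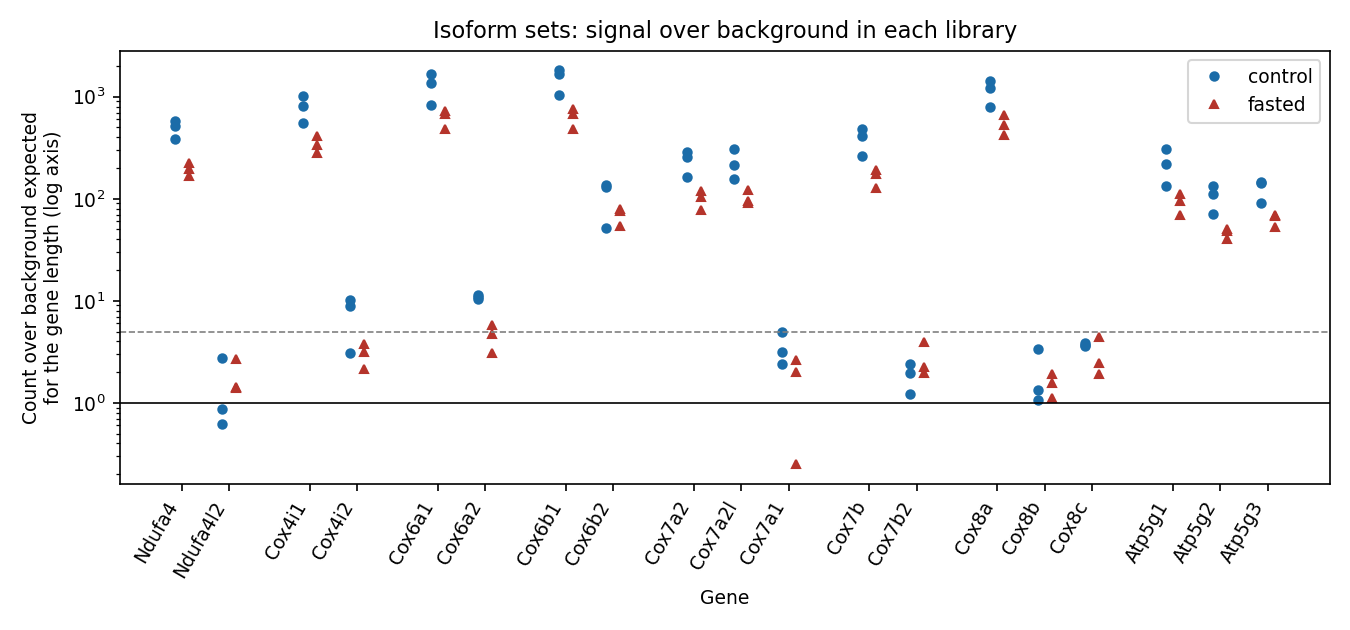
Counts of each gene of the isoform sets divided by the counts that the background predicts for its exonic length, by library, on a log axis; circles are control libraries, triangles fasted libraries, the solid line is the background and the dashed line the limit of 5 times for testing. Cox6b2 lies at 51.5 to 135, while Ndufa4l2, Cox7a1, Cox7b2, Cox8b and Cox8c lie at or below 5 times the background.

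Among the other isoform sets of complex IV no shift was called. Cox4i1 was read at 502, 703 and 639 CPM in the control libraries and 539, 648 and 583 CPM in the fasted libraries, a log2 fold change of -0.06 (SE 0.15). Cox7a2 differed by -0.10 (SE 0.18), Cox7a2l, which joins complexes III and IV into supercomplexes, by 0.06 (SE 0.13), Cox7b by -0.07 (SE 0.16) and Cox8a by 0.06 (SE 0.17). In each of these genes the groups overlapped and control library 1 was lowest.

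Complex V had a median of -0.10, with 13 of 17 tested genes below 0 and none at an unadjusted p under 0.05. Atp5b, the catalytic beta subunit, was the most abundant member on either scale. Atp5b (chromosome 10, 128083273 to 128090391, plus strand) was read at 1998, 2459 and 1946 CPM in the control libraries and 2042, 2295 and 2268 CPM in the fasted libraries. The groups overlapped, differing by 0.04 on the log2 scale (SE 0.14), and its level per length was 1114 ± 147 CPM per kb against 1149 ± 72.7 (SD, n = 3 each). The 5 genes of the F1 head and central stalk summed to 4219 ± 471 CPM against 4162 ± 206 CPM, and the 4 tested genes of the peripheral stalk to 1058 ± 102 against 953 ± 93.7 CPM (SD, n = 3 each). Atp5j, coupling factor 6 of that stalk, differed by -0.18 (SE 0.14), and its exons overlap Gabpa on the opposite strand. Atp5s, a coupling factor outside the enzyme's core, was lowest at -0.25 (SE 0.25), and rested on 42.2 CPM in control library 1 beside 20.9 to 28.8 CPM in the others. Atp5l, subunit g of the membrane part, differed by 0.09 (SE 0.21), and its 9 near-identical pseudogenes held counts equal to 34.2% of its own.

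The ring of the ATP synthase is built from 1 c protein encoded by 3 genes that differ in their import sequences. Atp5g1 made up 73.0%, 67.6% and 67.1% of their transcripts per length in the control libraries and 64.3%, 69.5% and 66.5% in the fasted libraries. The means were 69.2% ± 3.2 and 66.8% ± 2.6 (SD, n = 3 each, exact permutation p = 0.4, adjusted p = 0.70). Atp5g3 made up 15.3% ± 2.4 against 17.4% ± 1.3 (SD, n = 3 each, exact permutation p = 0.3, adjusted p = 0.70), and Atp5g2 15.5% against 15.8%. The log2 fold changes were -0.07 (SE 0.15) for Atp5g1, -0.01 (SE 0.16) for Atp5g2 and 0.14 (SE 0.19) for Atp5g3. Atp5g1 was thus the main c subunit gene in all 6 libraries, with a pseudogene near-identical to it that held counts equal to 26.2% of its own.

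In the lists of genes around the chain 0 were called. Of 42 tested assembly factors 31 were below 0 (against 47.7% of all genes tested), with a median of -0.21, 6 lower at an unadjusted p under 0.05 (14.3%, against 8.3% of all genes tested) and 11 with all fasted libraries below all control libraries (26.2%, against 12.9% of all genes tested). Among the 6 were Coa3 (-0.40, SE 0.12) and Sco1 (-0.50, SE 0.16), both needed to build complex IV, Timmdc1 (-0.53, SE 0.19) for complex I, Uqcc1 (-0.33, SE 0.13) and Uqcc2 (-0.38, SE 0.13) for complex III, and Atpaf2 (-0.31, SE 0.13) for complex V. Coa3 was read at 124, 126 and 114 CPM against 87.6, 95.3 and 92.9 CPM, and its edgeR adjusted p of 0.154 was the smallest of the list. Of 18 citric acid cycle enzymes 16 were below 0, with a median of -0.14. At an unadjusted p under 0.05, 3 were lower (16.7%, against 8.3% of all genes tested), namely Idh2, Mdh2 and Suclg1. In 7 all fasted libraries lay below all control libraries (38.9%, against 12.9%). For both lists, the same shares were 10.4% and 16.0% of all protein-coding genes tested. They were 25.4% and 37.5% of the protein-coding genes at 100 times the background or more. Most genes of both lists held less than 100 times the background, so that class is not matched to them.

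Of 19 tested genes for mobile carriers and ubiquinone synthesis 12 were below 0, with a median of -0.10. Cycs, somatic cytochrome c, was read at 248, 230 and 239 CPM in the control libraries and 159, 177 and 184 CPM in the fasted libraries. The groups did not overlap, and Cycs differed by -0.46 (SE 0.11, edgeR adjusted p = 0.132). Coq8a, an ATPase needed for ubiquinone synthesis, went the other way at 40.4, 40.5 and 30.6 CPM against 68.7, 74.0 and 48.5 CPM, or 0.78 higher on the log2 scale (SE 0.20, edgeR adjusted p = 0.142). Of 16 tested regulators of respiratory genes 7 were below 0, with a median of 0.06 and 1 at an unadjusted p under 0.05 (Hif1a, -0.46, SE 0.19). Nrf1 differed by -0.06 (SE 0.12), Gabpa by -0.13 (SE 0.18) and Tfam, which packs and transcribes mitochondrial DNA, by 0.03 (SE 0.14). The lowest of the list was Myc at -0.83, with 1037, 415 and 360 CPM against 359, 277 and 387 CPM. Control library 1 was the highest and the other libraries overlapped. The highest was Tfb1m, a factor of mitochondrial ribosome assembly, at 0.45 (SE 0.21), with all fasted libraries above all control libraries.

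The subunits made from the mitochondrial genome lay on the other side of 0 from their nuclear partners. All 13 were above 0, with a median of 0.61 and a range of 0.21 to 0.93, and 5 were above 0 at an unadjusted p under 0.05, against 11.5% of all genes tested. Their smallest edgeR adjusted p was 0.151. They summed to 12982, 15162 and 17224 CPM in the control libraries and 14452, 29406 and 19277 CPM in the fasted libraries, so that the groups overlapped and fasted library 2 stood above the rest. The difference between the nuclear and the mitochondrial list was not tested.

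**Figure D5:**
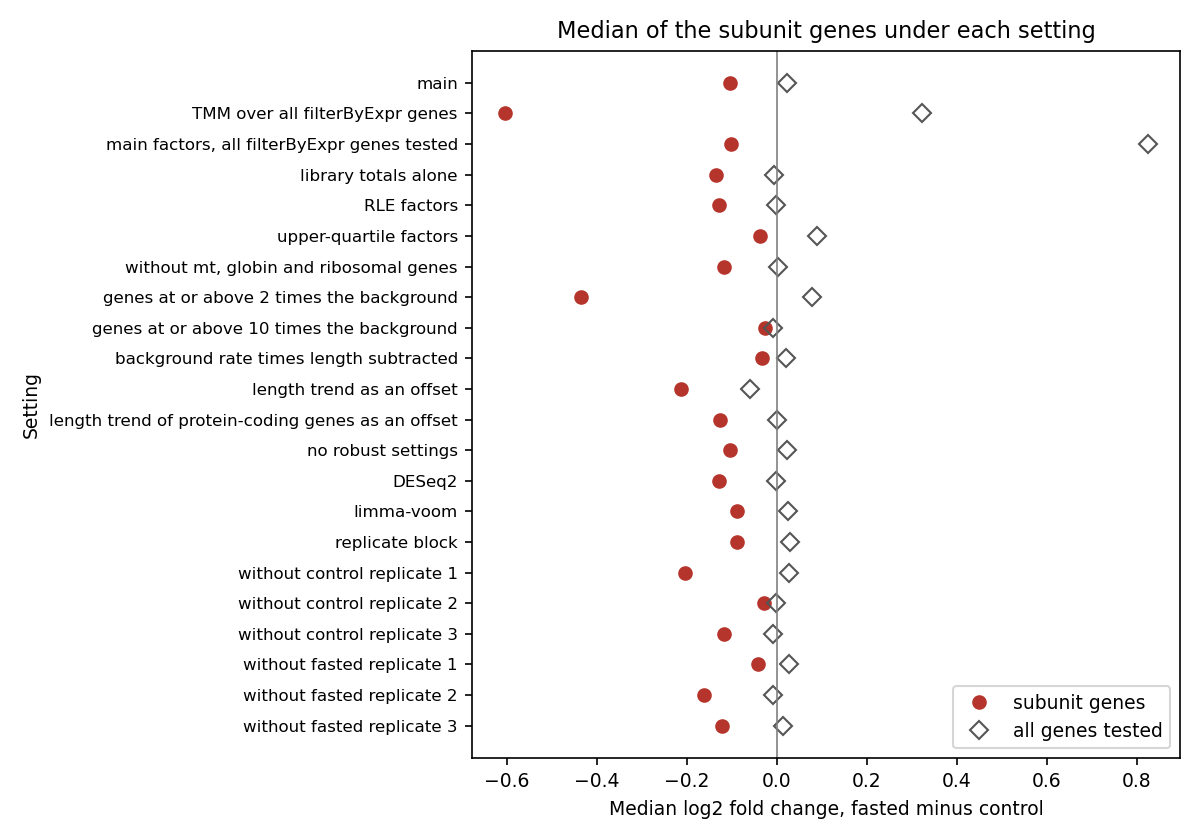
Median log2 fold change (fasted minus control) of the tested members (filled circles) and of all genes tested (open diamonds) under each setting; the grey line marks 0. The members' median is below 0 in every setting, from -0.61 with scaling factors from all genes of the low-count filter to -0.03 when genes under 10 times the background are left out.

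How far the members lay from 0 differed between the settings. With scaling factors and tests over all 36508 genes of the low-count filter, the members' median was -0.61 and the median of all genes was 0.32, and 10 members were called lower (11.9% of the 84 tested there), against 3.82% of all genes. With the same tests but factors from genes at 5 times the background or more, the members' median was -0.10 and that of all genes 0.82. There 2 members, Ndufa12 and Ndufb7, were called lower (2.38%, against 0.701% of all genes) and 1 higher (1.19%, against 13.7%). The cause of these shifts was not tested. With the limit lowered to 2 times the background, 9 were called lower (10.8%), against 5.4% of all genes. With the background predicted for each gene subtracted from its counts, the members' median was -0.03, 0 were called and 3 were lower at an unadjusted p under 0.05. Of the members, 23 have a near-identical pseudogene and 31 share exonic bases with another gene, and the strand and multiple-mapping settings of the counting are not given in the sources used here.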

How the data were processed

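Raw counts for each gene in 6 libraries, with exonic lengths, were deposited by the authors in 1 table, per the file header. HISAT2 2.2.1, featureCounts 2.0.1 and the build GRCm38 are named per the submitters' processing notes; strand and multiple-mapping settings are not given in the sources used here. Per the labels' protocols, libraries were made from oligo(dT)-purified mRNA with random hexamer priming, and the extraction text speaks of ground tissue, not of sorted cells.

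All 86 members matched GENCODE M21 by identifier and length. Of 36508 genes passing filterByExpr, 10641 held a mean count of at least 5 times the background rate times exonic length and were tested; 25867 did not, and were left out of the scaling and the tests. edgeR 4.0.16 (R 4.3.3) fitted TMM factors and robust quasi-likelihood models with group as the only term, with calls at an adjusted p under 0.05. The SE of each log2 difference was taken from the F statistic. CPM values use the counts in tested genes times the TMM factor. Levels per kb use the shortest principal transcript with the best support. Shares were compared with exact permutation tests (scipy 1.17.1). Near-identical pseudogenes had at least 95% identity over 100 bases.

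Named genes were, in each complex, the pair with the highest and the pair with the lowest fold change, the isoform sets, and the gene with the highest level per length in the control libraries; other genes were named after their values were seen, among them those below an unadjusted p of 0.05. Members, lists and tests were chosen with earlier results of these data known. Depth was 12797144 to 30246110 counts, and counting error was not compared with the spread between libraries. Genes near the background held few counts, such as 9 to 44 in a library for Ndufa4l2 and 31 to 104 for Cox6a2. Alternatives were other scalings, filters, background and length corrections, DESeq2 1.42.0, limma 3.58.1 voom, a replicate term and leaving out each library. The edgeR script was tested on simulated data. Some genes are not reported here.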

Additional observations from a re-analysis of the deposited data

How the results depend on the processing

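Over 21 alternative fits, the members' median kept its sign, and the count of called members stayed at 0 in all but 4. With TMM factors and tests over all genes of the low-count filter, 10 members were called and 66 were lower at an unadjusted p under 0.05; the medians were -0.61 for all members, -0.63, -0.68, -0.59, -0.54 and -0.61 for complexes I to V, and -0.93 relative to all genes, whose own median shifted to 0.32. With the report's factors but all filtered genes tested, 3 were called, 3 were higher at an unadjusted p under 0.05, and the members lay -0.93 from all genes, whose median was 0.82. With the limit at 2 times the background, 9 were called, 0 were higher and 48 lower at an unadjusted p under 0.05, and the medians were -0.44 for all members, -0.47, -0.50, -0.42, -0.37 and -0.44 for complexes I to V, and -0.51 relative to all genes. DESeq2 called 1 member. Lower members at an unadjusted p under 0.05 numbered 3 with upper-quartile factors, 3 with the limit at 10 times the background, 3 with the background subtracted and 23 with a length trend as an offset, where complex I had a median of -0.27; with either length trend 0 were higher. Leaving out 1 library at a time, 0 to 1 were higher and 4 to 13 lower at that p, and the share of Cox6b2 differed by 4.8 to 7.1 percentage points (3.5 with merged exon lengths). The cause of these shifts was not tested.

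The replicate numbers did not pair the libraries: same-numbered libraries had correlations of -0.17, 0.14 and -0.33 in their deviations from the group means. With the replicate block 0 members were called and 3 were lower at an unadjusted p under 0.05.

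Genes near 0 changed sign. With factors over all filtered genes these were Ndufs1 (-0.47), Ndufb2 (-0.23), Uqcrfs1 (-0.42), Uqcrh (-0.34), Cox6a1 (-0.38), Atp5l (-0.39), Atp5g3 (-0.36), Atp5b (-0.47), Cox7a2l (-0.44) and Cox8a (-0.44). With the limit at 2 times the background they were Ndufs1 (-0.29), Ndufb2 (-0.058), Uqcrfs1 (-0.25), Uqcrh (-0.17), Cox6a1 (-0.21), Atp5l (-0.23), Atp5g3 (-0.20), Atp5b (-0.30), Cox7a2l (-0.28) and Cox8a (-0.27). With upper-quartile factors they were Sdhc (0.0019), Uqcr11 (0.038), Cox4i1 (0.0047) and Atp5g2 (0.053), and with the limit at 10 times the background Sdhc (0.013), Uqcr11 (0.047), Cox4i1 (0.015), Cox7b (0.0086), Atp5g1 (0.0027) and Atp5g2 (0.062). With the background subtracted they were Sdhc (0.0034), Uqcr11 (0.048), Cox4i1 (0.015), Cox7b (0.0067) and Atp5g2 (0.048). With the length trend they were Uqcrfs1 (-0.039), Cox6a1 (-0.23), Cox7a2l (-0.041) and Cox8a (-0.33), with the trend of protein-coding genes Cox8a (-0.0074), and Atp5g2 was at 0.0088 with limma and 0.0016 with the replicate block. Leaving out 1 library at a time, signs changed within these ranges: Uqcrfs1 -0.066 to 0.17, Atp5s -0.49 to 0.056, Atp5l -0.12 to 0.20, Atp5g3 -0.058 to 0.30, Atp5b -0.0396 to 0.12, Cox7a2l -0.037 to 0.14, Cox8a -0.085 to 0.16, Uqcr11 -0.16 to 0.0699, Cox6b1 -0.24 to 0.049, Cox4i1 -0.19 to 0.011, Cox7a2 -0.25 to 0.014, Cox7b -0.20 to 0.0398, Atp5g2 -0.14 to 0.0905, Ndufs1 -0.028 to 0.15, Cox6a2 -0.50 to 0.043 and Atp5g1 -0.20 to 0.037.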
